A study of Bos taurus with 14 samples.

Results

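ACTA2, CNN1, MYLK, VIM and THY1 are 5 genes whose products are commonly used to describe contractile and mesenchymal cells. They were chosen by name: CNN1 by 1 stated probe, and the others by every probe whose name, accession or description in the scanner files gives the symbol. Each gene had 1 probe, so the set is 5 of 15208 non-control probes and 5 of 6746 named genes on a custom Agilent bovine array. All 5 probes passed the filter on dim signals in both cell types, CNN1 in granulocytes only through the IFNT arrays.

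The arrays held Cy3-labelled RNA from Bos taurus cells kept for 2 h with interferon tau (IFNT), which the ruminant conceptus secretes, or with phosphate-buffered saline (PBS). There were 4 granulocyte samples with IFNT, 4 granulocyte samples with PBS, 3 samples of bovine endometrial stromal cells (BES) with IFNT and 3 BES samples with PBS. The labels give an IFNT dose of 1 mg/mL (an unusually large amount for such a cytokine, with a unit that could not be checked), class the BES as in vitro and the granulocytes as in vivo/in vitro, name no strain, age or genotype, and describe RNA extraction for granulocytes alone. They do not say whether samples of a group came from separate animals or cultures, so the p-values measure only the spread between these samples.

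ACTA2 encodes smooth muscle alpha-actin, the thin filament protein of smooth muscle and myofibroblasts. CNN1 encodes calponin, which binds actin and tropomyosin, and MYLK encodes the calmodulin-dependent kinase that phosphorylates myosin light chains and so starts smooth muscle contraction. VIM encodes vimentin, the intermediate filament protein of mesenchymal cells that leukocytes also make in quantity, and THY1 encodes a GPI-anchored surface glycoprotein (CD90) of many fibroblasts and, in some species, of lymphoid cells. Endometrial stromal cells are fibroblast-like cells that gain contractile proteins when they differentiate into myofibroblasts, whereas granulocytes are circulating leukocytes that crawl with non-muscle actin and myosin.

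Every value below rests on a single 60-base probe per gene, so the probes are printed here as the files give them. Capitals mark the longest run that a probe shares with any other non-control probe of the array.
ACTA2 (ABR2032): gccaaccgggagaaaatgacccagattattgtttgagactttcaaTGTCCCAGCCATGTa
CNN1 (A_73_116127): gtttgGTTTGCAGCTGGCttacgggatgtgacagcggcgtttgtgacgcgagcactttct
MYLK (ABR1629): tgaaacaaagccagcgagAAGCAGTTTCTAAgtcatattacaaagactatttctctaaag
VIM (ABR393): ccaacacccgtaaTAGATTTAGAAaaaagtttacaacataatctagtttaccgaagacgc
THY1 (A_73_120093): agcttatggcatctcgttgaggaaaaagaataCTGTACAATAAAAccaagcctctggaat

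The longest shared runs were 14 bases for ACTA2 (with a probe named ATP9A), 13 for CNN1 (with a probe named GPA33), 13 for MYLK, 11 for VIM and 13 for THY1. No other probe of the array had the same sequence as any of the 5. The share of G and C was 45% for ACTA2, 55% for CNN1, 35% for MYLK, 35% for VIM and 38.3% for THY1, against a median of 43.3% over all non-control probes. The ACTA2, MYLK and VIM probes carry those symbols in the files. The CNN1 probe is listed under an older locus name and described as similar to human calponin 1, and the bovine RefSeq table (ARS-UCD2.0) gives CNN1 for its gene number. The THY1 probe is named through its RefSeq accession. The files give no genome build, so no positions are stated.

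A sixth probe, which the choice by symbol leaves out, was added after the data had been seen. The files describe it as similar to aortic smooth muscle actin (alpha-actin-2), and the RefSeq table gives it no symbol, so it is called the ACTA2-like probe below. Its sequence is shown because it behaved unlike the ACTA2 probe under treatment and shares no more than 5 bases in a row with it.
ACTA2-like (ABR8979): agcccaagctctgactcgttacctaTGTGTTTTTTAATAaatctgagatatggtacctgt

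On the arrays, 66.4% to 70.9% of probes in granulocytes and 71.6% to 76.1% in BES were well above background, and the 75th percentile of intensity was 1009 to 1491 in granulocytes and 2564 to 3173 in BES. A level below is log2 of the processed signal minus that percentile of the same array, so that 0 is the array's 75th percentile. IFNT raised ISG15 and MX1, the standard interferon-stimulated genes, in both cell types: ISG15 by 1.45 ± 0.07 and MX1 by 2.41 ± 0.06 in granulocytes, and by 8.42 ± 0.10 and 6.87 ± 0.08 in BES (log2, SE). The granulocyte arrays shared 1 slide and the BES arrays shared the other, which means that the effects of slide and of cell type cannot be told apart. On the granulocyte slide the IFNT samples lay in array row 2 and the PBS samples in row 1, so row and treatment cannot be told apart there, and on the BES slide row 1 held only PBS samples 1 and 2.

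**Figure D1:**
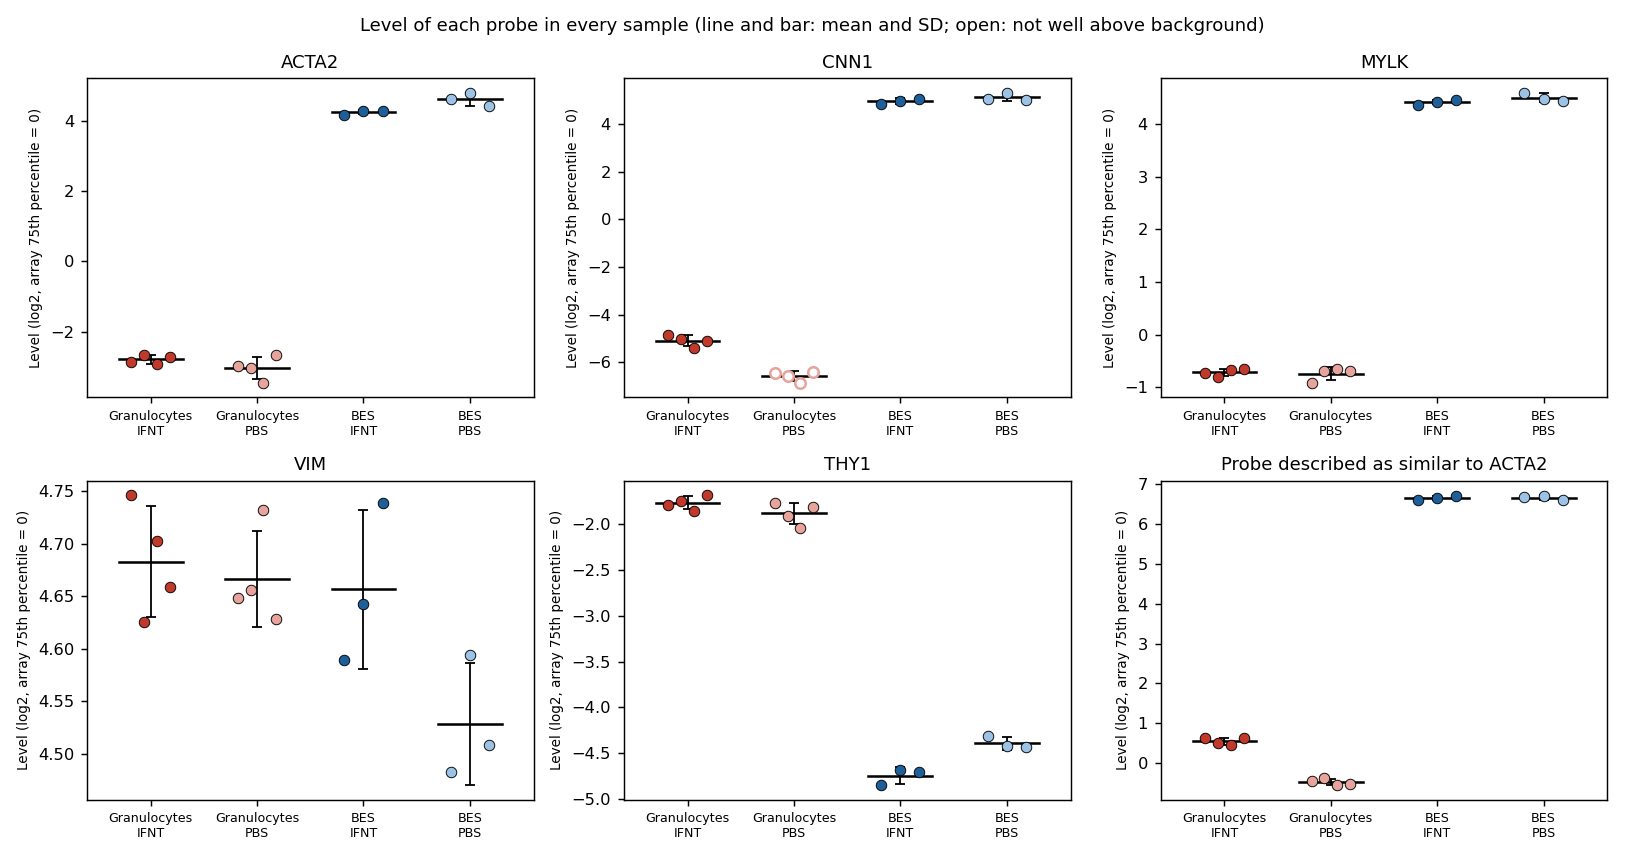
Level of the 5 probes and of the ACTA2-like probe in each of the 14 samples (vertical axis, log2, the array's 75th percentile at 0; each panel has its own scale), by group. Points are samples, lines and bars are group means and SDs, and open points were not well above background. ACTA2, CNN1 and MYLK are far lower in granulocytes than in BES, VIM is at nearly the same level everywhere under this scaling (4.48 to 4.75; lower in granulocytes with quantile normalization), and THY1 is higher in granulocytes.

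The cell type labels were checked against marker genes. Of 9 measured stromal fibroblast markers, all were well above background on every BES array, while COL1A2, COL3A1, LUM and PDGFRA were above it on no granulocyte array. The summed linear level of these markers (1 being an array's 75th percentile) was 0.192 to 0.228 in granulocytes with IFNT and 0.116 to 0.159 in granulocytes with PBS, and 253 to 261 in BES with IFNT and 244 to 246 in BES with PBS. All 9 measured granulocyte markers were above background on every granulocyte array. Of these, 5 were also above it on every BES array with IFNT and 6 on every BES array with PBS, at a summed level of 0.898 to 0.991 in BES with IFNT and 0.938 to 1.04 in BES with PBS, against 744 to 829 in granulocytes with IFNT and 717 to 918 in granulocytes with PBS. Of 6 measured epithelial markers, 5 were above background on every BES array, with a summed level of 217 to 219 with IFNT and 207 to 235 with PBS, while EPCAM was above it on no BES array. T and NK cell markers were measurable in granulocytes, with a summed level of 4.69 to 4.89 with IFNT and 4.69 to 4.85 with PBS. In bulk samples, fewer cells of a type and less RNA per cell cannot be told apart.

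The 5 genes did not share 1 pattern across the cell types. The contractile genes ACTA2, CNN1 and MYLK were lower in granulocytes than in BES. With PBS the log2 difference was −7.65 for ACTA2 and −5.25 for MYLK. CNN1, which was at background in granulocytes, was lower by at least 10.96 on the processed signal (fitted values of −12.57 to −9.14 under alternatives). VIM was within 0.14 of equal under the 75th percentile scaling (−0.86 with quantile normalization), and THY1 was higher in granulocytes, which goes against its use as a stromal marker here. All 5 passed the test of granulocytes against BES with PBS (limma, adjusted p under 0.05), but 91.7% of all 12046 probes tested did so, and a call in this comparison says little about these genes. With IFNT, 4 of the 5 passed (not VIM), against 92.2% of probes. The groups with PBS did not overlap for any of the 5, against 90.4% of all probes. A difference as large as those of ACTA2, CNN1 and MYLK was less common: 4.25% of probes were lower in granulocytes by 5 or more on the log2 scale.

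ACTA2 had levels of −2.85, −2.66, −2.93 and −2.73 in granulocytes with IFNT, −2.98, −3.02, −3.46 and −2.68 in granulocytes with PBS, 4.18, 4.29 and 4.29 in BES with IFNT, and 4.63, 4.79 and 4.43 in BES with PBS. Every granulocyte sample lay far below every BES sample, and the widest spread within a group was that of granulocytes with PBS (SD 0.32). With PBS, ACTA2 was 201-fold lower in granulocytes (log2 −7.65 ± 0.15, SE, adjusted p 2.6e-14), and with IFNT it was 132-fold lower (−7.05 ± 0.15). In intensity, the probe read 155 to 204 in granulocytes with IFNT and 110 to 233 in granulocytes with PBS, and 51949 to 60935 in BES with IFNT and 66524 to 78395 in BES with PBS. The granulocyte readings were dim but well above background on all 8 arrays.

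With IFNT, ACTA2 was lower in BES in all 3 samples than in any PBS sample, by −0.36 ± 0.10 (95% interval −0.59 to −0.13). After adjustment over all probes this did not pass (limma, adjusted p 0.0956). The call turned on settings: adjusted p was 0.0339 with an intensity trend and robust prior, and 0.0406 without PBS sample 3, the lowest of the PBS group, where the difference was −0.45. With array row as a covariate the difference was −0.17 (adjusted p 0.59). PBS sample 3 was also the only PBS sample in the same array row as the IFNT samples. In granulocytes, IFNT and PBS samples overlapped (0.24 ± 0.15, 95% interval −0.10 to 0.58, adjusted p 0.225).

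CNN1 had levels of −4.84, −5.03, −5.40 and −5.08 in granulocytes with IFNT, −6.44, −6.56, −6.86 and −6.40 in granulocytes with PBS, 4.81, 4.96 and 5.05 in BES with IFNT, and 5.05, 5.29 and 5.01 in BES with PBS. The 4 granulocyte PBS samples were not well above background, while all 4 granulocyte IFNT samples were. The intensities were 27.9 to 41.9 in granulocytes with IFNT and 10.5 to 17.7 in granulocytes with PBS, near the dimmest signals that the scanner software called well above background on those arrays (18.1 to 26.6 with IFNT and 20.8 to 24.1 with PBS). In BES the same probe read 80443 to 97435 with IFNT and 99533 to 104984 with PBS.

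CNN1 was the only 1 of the 5 genes that passed the test in granulocytes, where 44.6% of the 10379 probes tested passed and 17.2% did so with a rise. CNN1 met the filter only through the group in which it was high, so its call and its p-value are given as a description of a probe measured with IFNT alone. The fitted change was 1.47 ± 0.14 (95% interval 1.16 to 1.79, adjusted p 4.3e-05), and every IFNT sample lay above every PBS sample, as 43.6% of probes did in one direction or the other. Because the PBS samples were at background, the fitted value is not a measured change. With the PBS level at its bound, CNN1 was at least 1.69-fold higher with IFNT (log2 0.75) on the processed signal. With normexp background correction the fitted rise was 0.43, below that value. So the bound holds only for the processed signal, and it carries no sampling error. Such bounds set the mean level of the bright group against the mean, over the dim group's arrays, of the lowest signal called well above background on each array (or the probe's own signal where that was higher). Over the 17 alternative settings the fitted values were between 0.43 (normexp background correction) and 1.58. The rise was called in each, but all share PBS samples at background, so these calls add no support. In BES the IFNT and PBS samples overlapped (−0.18 ± 0.10, 95% interval −0.41 to 0.06, adjusted p 0.296).

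Against BES, CNN1 was at least 1995-fold lower in granulocytes with PBS on the processed signal, and 1046-fold lower with IFNT (log2 −10.03 ± 0.14, adjusted p 1.2e-15). The CNN1 level with IFNT in granulocytes was still near the lowest measurable signals. Other markers moved beside it: the summed stromal fibroblast level given above was higher with IFNT in granulocytes, where 3 of its 9 genes were above background on every IFNT array and 2 on every PBS array. Of its 3 members tested there 1 passed: COL1A1, the alpha-1 chain of type I collagen, rose by 1.42 ± 0.09 (adjusted p 5e-06; 0.63 with normexp correction). The smooth muscle markers ACTG2 and DES had a summed level of 0.168 to 0.197 in granulocytes with IFNT and 0.213 to 0.262 with PBS, with DES above background on no granulocyte array. Of 5 monocyte markers, 4 rose (CD14 by 1.03 ± 0.07) and 1 fell, while their summed level was 26.6 to 27.6 with IFNT and 28.3 to 30.8 with PBS. Both measured eosinophil markers fell (CCR3 −1.34 ± 0.07), with a summed level of 10.6 to 12.1 with IFNT and 13.7 to 14.5 with PBS. Of 5 epithelial markers tested, 2 passed with higher levels, among them MUC1, which was above background on 4 of 4 IFNT and 1 of 4 PBS arrays, and the list's summed level was 3.94 to 5.73 with IFNT and 4.24 to 5.79 with PBS. Of the 9 granulocyte markers, 4 rose, led by CATHL6 (1.54 ± 0.05), and 2 fell, MMP9 (−0.56 ± 0.05) and PTAFR (−0.54 ± 0.06). These marker counts stand beside the 44.6% of all named genes that passed in granulocytes. The part of these markers in the CNN1 result was not tested.

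MYLK had levels of −0.73, −0.81, −0.67 and −0.66 in granulocytes with IFNT, −0.92, −0.70, −0.66 and −0.70 in granulocytes with PBS, 4.37, 4.43 and 4.45 in BES with IFNT, and 4.60, 4.48 and 4.44 in BES with PBS. It was well above background on all 8 granulocyte arrays, with intensities of 723 to 743 with IFNT and 534 to 918 with PBS. Within each cell type the treatments overlapped: the change was 0.03 ± 0.07 in granulocytes (95% interval −0.13 to 0.18, adjusted p 0.786) and −0.09 ± 0.06 in BES (−0.22 to 0.05, adjusted p 0.363). These intervals leave room for changes of up to 0.22 in either cell type. MYLK was 38.1-fold lower in granulocytes than in BES with PBS (log2 −5.25 ± 0.07, adjusted p 5.7e-16) and 35.2-fold lower with IFNT (−5.14 ± 0.07).

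VIM had levels of 4.75, 4.63, 4.70 and 4.66 in granulocytes with IFNT, 4.65, 4.66, 4.73 and 4.63 in granulocytes with PBS, 4.59, 4.64 and 4.74 in BES with IFNT, and 4.48, 4.59 and 4.51 in BES with PBS. All 14 values lay within a narrow range, and IFNT and PBS overlapped in both cell types (0.02 ± 0.05 in granulocytes, adjusted p 0.804; 0.13 ± 0.06 in BES, 95% interval −0.01 to 0.27, adjusted p 0.224). Vimentin is the main cytoplasmic intermediate filament protein of both fibroblasts and leukocytes. The order of the cell types depended on the scaling. With PBS, VIM in granulocytes minus BES was 0.14 ± 0.05 (adjusted p 0.0207) with arrays scaled to their 75th percentile, −0.01 (adjusted p 0.826) with arrays scaled to their median, and −0.86 (adjusted p 2.1e-10) with quantile normalization. The median difference over all probes was 0.03, −0.12 and −0.23 under these 3 settings.

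In unscaled intensity VIM read 29503 to 32178 in granulocytes with IFNT and 25310 to 37085 with PBS, and 68926 to 78367 in BES with IFNT and 61928 to 70964 with PBS. With IFNT, the scaled levels of the cell types overlapped (0.03 ± 0.05, adjusted p 0.623). The 75th percentile setting also lost its call with PBS without BES PBS sample 1, without BES PBS sample 3 and without granulocyte PBS sample 3 (adjusted p 0.0525 to 0.083). No direction between the cell types is therefore given for VIM.

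THY1 had levels of −1.79, −1.74, −1.85 and −1.68 in granulocytes with IFNT, −1.77, −1.91, −2.04 and −1.82 in granulocytes with PBS, −4.85, −4.68 and −4.71 in BES with IFNT, and −4.31, −4.42 and −4.44 in BES with PBS. Every BES sample was lower than every granulocyte sample, and every BES sample with IFNT was lower than every BES sample with PBS. THY1 was 5.69-fold higher in granulocytes than in BES with PBS (log2 2.51 ± 0.07, adjusted p 1.1e-12) and 7.89-fold higher with IFNT (2.98 ± 0.07). The probe was dim in BES, with intensities of 99.4 to 121 with IFNT and 119 to 160 with PBS, though well above background on all 6 arrays. Beside this, the T and NK cell markers given above were higher in granulocyte samples than in BES, where they summed to 0.0403 to 0.0447 with IFNT and 0.0406 to 0.0426 with PBS. Their part in the THY1 difference was not tested.

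THY1 was the only 1 of the 5 genes that passed the test in BES, where 3.66% of the 11309 probes tested passed and 1.37% did so with a fall. It fell by 0.36 on the log2 scale, to 0.782 times its PBS level (−0.36 ± 0.06, 95% interval −0.51 to −0.20, adjusted p 0.0408). ACTA2 and THY1 were the 2 members whose BES groups did not overlap, against 33.5% of all probes. The THY1 call was at the edge of the threshold: adjusted p was between 0.0596 and 0.124 when any 1 of the 6 samples was left out, 0.322 with array row as a covariate and 0.121 without the filter on dim probes. The fitted difference kept its sign in all 16 alternatives (−0.39 to −0.26). In granulocytes THY1 did not pass (0.12 ± 0.07, 95% interval −0.04 to 0.27, adjusted p 0.203).

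**Figure D2:**
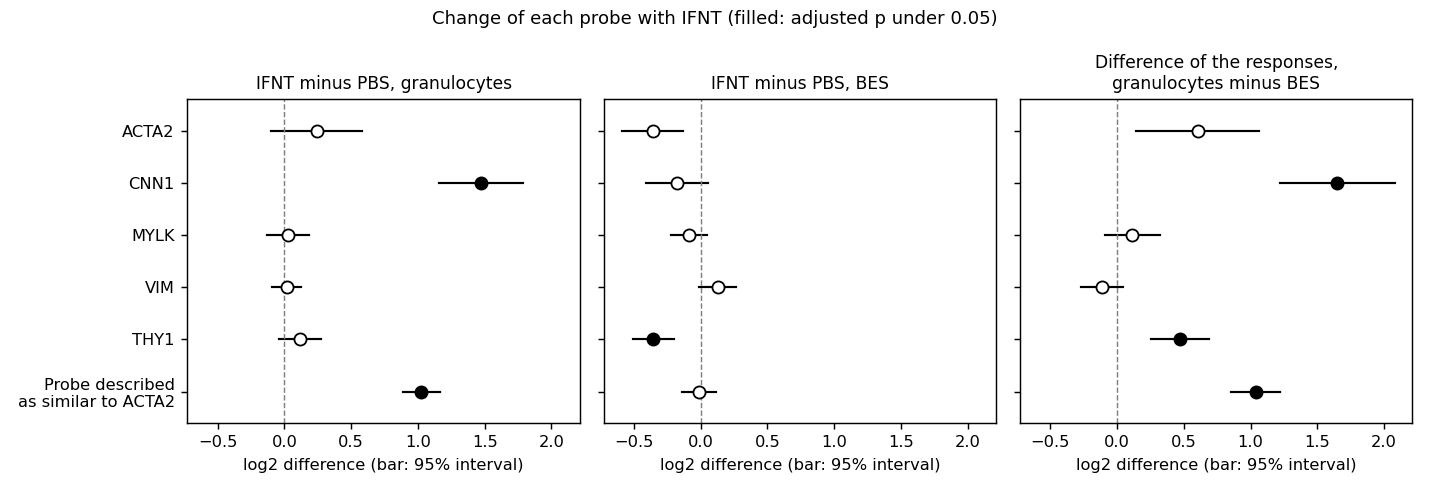
Change with IFNT of each probe in granulocytes and in BES, and the difference between these changes (horizontal axis, log2; bars are 95% intervals). Filled points have an adjusted p under 0.05. In granulocytes CNN1 (a fitted value, its PBS samples being at background) and the ACTA2-like probe rose, in BES THY1 fell, and the response differed between the cell types for CNN1, THY1 and the ACTA2-like probe.

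The difference between the IFNT responses was itself tested over all 14 arrays, where 26.5% of 12046 probes passed. It passed for CNN1 and THY1, both with a positive difference, as 11.7% of probes did. For CNN1 the difference, granulocytes minus BES, was at least 1.91-fold (log2 0.93) on the processed signal, with the granulocyte PBS level at its bound. Its fitted value of 1.65 ± 0.20 (adjusted p 5.8e-05; 0.60 and still past the threshold with normexp correction) rests on that unmeasured level. For THY1 it was 0.47 ± 0.10 (95% interval 0.25 to 0.69, adjusted p 0.004), and it passed in all 23 alternatives (0.36 to 0.51). ACTA2 had a larger but noisier difference than THY1 (0.60 ± 0.21, 95% interval 0.15 to 1.06) that did not pass (adjusted p 0.0523). Of 23 alternatives on the same probe, the ACTA2 difference passed in 9, with adjusted p as low as 0.0114 without granulocyte PBS sample 4. MYLK (0.11 ± 0.09, adjusted p 0.433) and VIM (−0.11 ± 0.07, adjusted p 0.297) did not pass, though VIM did so with quantile normalization (−0.20, adjusted p 0.0212).

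The ACTA2-like probe had levels of 0.62, 0.49, 0.45 and 0.62 in granulocytes with IFNT, −0.45, −0.38, −0.55 and −0.53 in granulocytes with PBS, 6.59, 6.64 and 6.70 in BES with IFNT, and 6.69, 6.70 and 6.59 in BES with PBS. Like the ACTA2 probe it was far lower in granulocytes, 141-fold with PBS (log2 −7.14 ± 0.06) and 68.6-fold with IFNT (−6.10 ± 0.06). Under IFNT the probes differed. The ACTA2-like probe rose 2.03-fold in granulocytes (1.02 ± 0.06, 95% interval 0.89 to 1.16, adjusted p 2.5e-06), with every IFNT sample above every PBS sample, and this was called in all 17 alternatives (0.97 to 1.06). Among all probes in granulocytes, 17.2% passed with a rise and 43.6% did not overlap between the treatments. A rise of 1 or more on the log2 scale that passed was seen for 3.87%. That cut lies just below this probe's own estimate, and the probe was added after the data had been seen. In BES its IFNT and PBS samples overlapped (−0.02 ± 0.05, 95% interval −0.14 to 0.11, adjusted p 0.88), and the difference between the responses passed (1.04 ± 0.08, adjusted p 2.3e-06). Whether this probe reads ACTA2 was not tested.

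**Figure D3:**
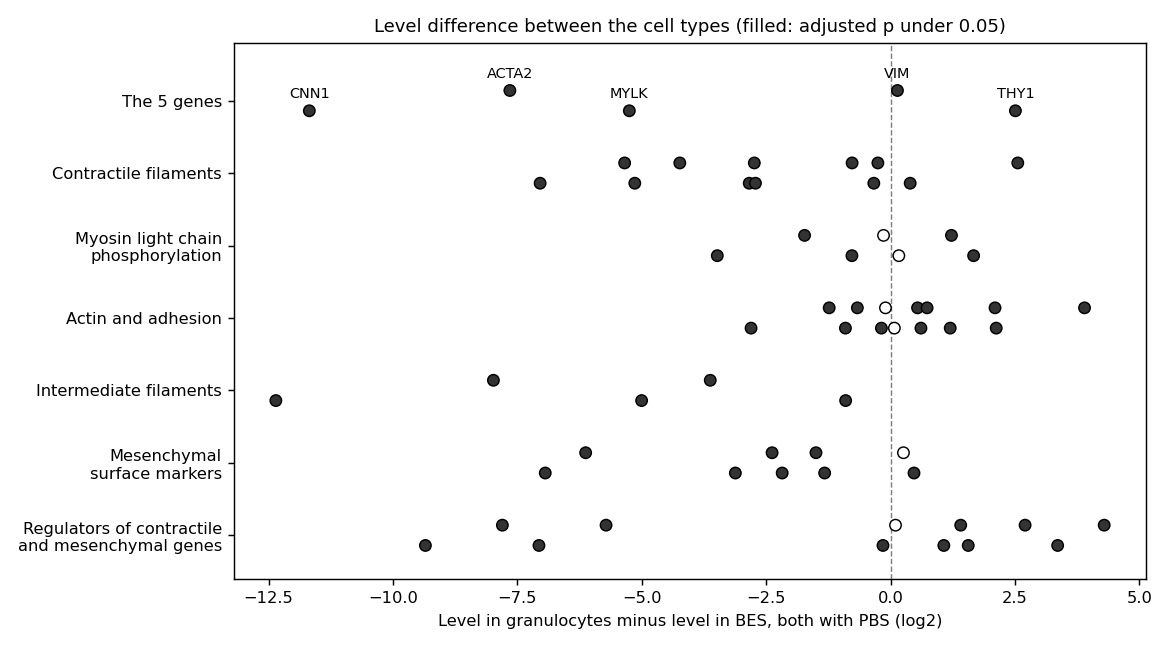
Level in granulocytes minus level in BES, both with PBS (horizontal axis, log2), for the 5 genes and for 6 lists of related genes (rows; 1 point per gene, staggered to show overlaps). Filled points have an adjusted p under 0.05. CNN1, ACTA2 and MYLK lie far to the left, VIM near 0 under the 75th percentile scaling (−0.86 with quantile normalization) and THY1 to the right, and 10 of 12 contractile filament genes lie to the left of 0 past the threshold. CNN1 and 10 of the list genes were at background in granulocytes with PBS, and their points are fitted values.

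Related genes were read from 6 lists, of which 59 of 100 entries were tested in BES and 47 in granulocytes. Between the cell types with PBS 53 of 59 passed, near the 92.7% of all named genes that did so. Of the 53, 18 were higher and 35 lower in granulocytes. This split depended on the processing: 26 higher and 28 lower with normexp correction, and 14 higher and 41 lower with quantile normalization. Of 12 other contractile filament genes, 10 were lower and 2 higher in granulocytes than in BES with PBS, with a median of −2.73 against −0.11 over all named genes. Of the 10, 2 (MYL9 and ACTA1) were above background on no granulocyte PBS array, and the median was −0.87 with these at their bound. A gene at background in granulocytes entered this comparison only through BES, so its direction was fixed by the filter. Of the 10 lower genes, gamma smooth muscle actin ACTG2 (−5.35 ± 0.08) and tropomyosin TPM1 (−7.04 ± 0.12) were above background on 4 of 4 granulocyte PBS arrays. TPM2 (−0.34 ± 0.13) and TAGLN2 (−0.26 ± 0.11), also among the 10, differed little. The broadly expressed calponin CNN2 was higher (2.56 ± 0.08). Of 5 tested intermediate filament genes other than VIM, the 3 measured on at least 1 granulocyte PBS array were lower, including lamin LMNA (−3.62 ± 0.12), and the other 2 (DES and PLEC) were at background there. Of 9 mesenchymal surface markers, 4 measured on at least 1 such array were lower, 3 more (NT5E, PDGFRA and VCAM1) were at background there, and 1, the hyaluronan receptor CD44, was higher (0.47 ± 0.05; 0.06 and not past the threshold with quantile normalization), while THY1 was higher. Of 14 actin and adhesion genes, 7 were higher, among them paxillin PXN (3.90 ± 0.05) and vinculin VCL (2.12 ± 0.10), and 5 were lower. Of these 5, PFN1 differed by only −0.19 ± 0.06.

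In granulocytes, none of 10 other contractile filament genes rose beside CNN1 (limma; none was higher at an unadjusted p under 0.05 either), and 3 fell: ACTG2 (−0.44 ± 0.07, adjusted p 0.0013), TPM1 (−0.60 ± 0.12) and myosin light chain MYL6 (−0.34 ± 0.09). TPM1 was above background on only 1 of 4 IFNT arrays and 4 of 4 PBS arrays, so it passed the filter through the PBS group and its difference is not fully measured. The TPM1 call was also lost with normexp background correction (−0.06, adjusted p 0.703). Of 6 genes around myosin light chain phosphorylation, where MYLK acts, 4 fell, with the calmodulin gene CALM2 (−0.36 ± 0.07) and non-muscle myosin MYH9 (−0.32 ± 0.07) among them. A further 1 of the 4, the kinase gene ROCK2, was above background on 2 of 4 IFNT arrays. The medians of these lists were −0.07 and −0.27, against −0.05 over all named genes. Of 14 actin and adhesion genes, 3 rose, with VCL at 0.59 ± 0.10, and 7 fell, with PXN at −0.47 ± 0.06 and ACTG1 at −0.30 ± 0.05. Of the 8 tested regulators of these genes, 3 rose, led by the TGF-beta receptor TGFBR1 (0.75 ± 0.12), and 2 fell, SMAD4 (−0.24 ± 0.04) and TGFBR2 (−0.29 ± 0.06). LMNA was the 1 of 3 intermediate filament genes that fell (−0.44 ± 0.12), and of 6 mesenchymal surface markers none passed (limma), with 2 at an unadjusted p under 0.05. In all, 23 of 47 list genes passed, or 48.9%, near the 44.6% of all named genes. Alternatives called 17 to 26 of the 47. Among the 23, the calls of CFL1 and TLN1 (both lower) held in only 8 of 17 alternatives each. Those of SMAD7, SMAD3 and ROCK2 held in 9, 10 and 11.

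In BES none of the 59 list genes passed (limma), as against 3.57% of all named genes. At an unadjusted p under 0.05 there were 16, of which 12 were lower with IFNT and 4 higher. The share of all named genes at that unadjusted threshold is not given here, so no tendency is read from these counts. Beside ACTA2, the contractile filament genes with the smallest p were CNN2 (−0.25 ± 0.07, adjusted p 0.1), MYL9 (−0.30 ± 0.11, adjusted p 0.16) and ACTG2 (−0.23 ± 0.08, adjusted p 0.17). Beside THY1, the mesenchymal surface markers PDGFRA (0.32 ± 0.07, adjusted p 0.062) and VCAM1 (0.51 ± 0.14, adjusted p 0.098) had positive differences. Alternatives called 0 to 9 of the 59, the most with an intensity trend and robust prior (3 higher and 6 lower).

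**Figure D4:**
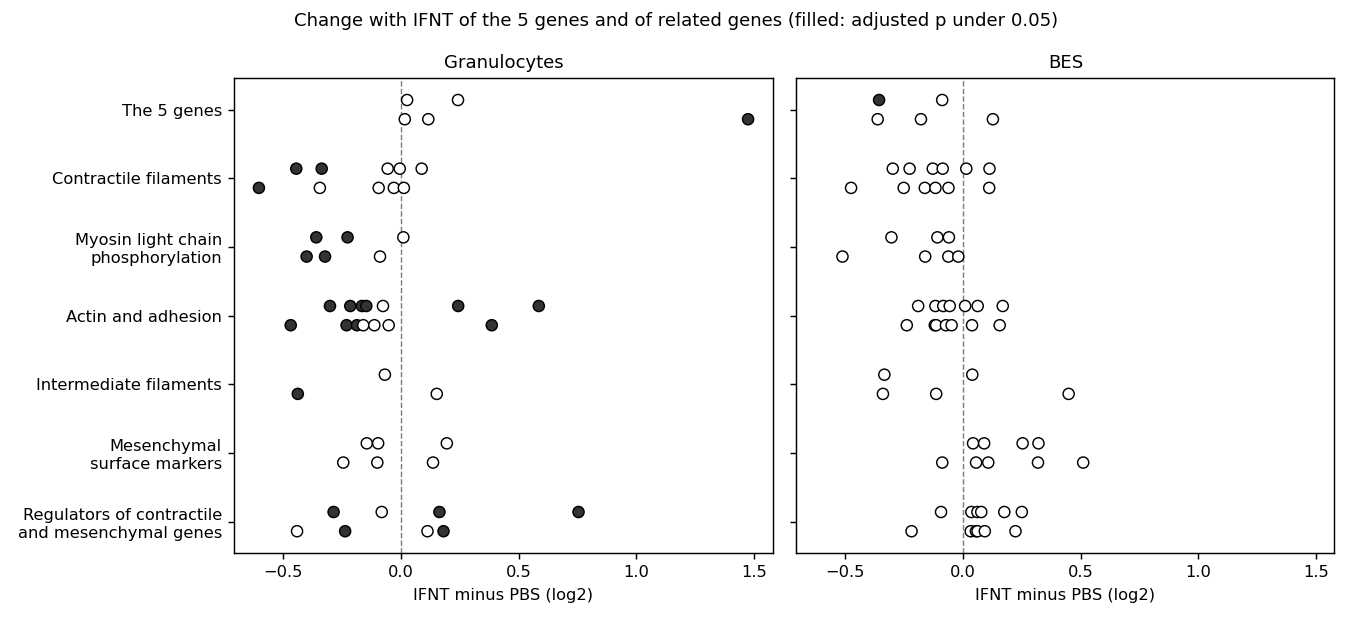
Change with IFNT (horizontal axis, log2) of the 5 genes and of the genes of 6 related lists (rows; 1 point per gene, staggered to show overlaps) in granulocytes and in BES. Filled points have an adjusted p under 0.05. In granulocytes CNN1 stands to the right at a fitted 1.47, its PBS samples being at background (at least 0.75 on the processed signal). The filled contractile filament genes there lie left of 0, and in BES only THY1 is filled.

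Across the 14 arrays, the named genes whose level ran most like each of the 5 were listed from 5662 candidates, as a description with no test. The arrays fall into 2 clusters by cell type and share their slide within each, so Pearson's r over all of them mostly ranks genes by that gap. On this measure ACTA2 was most like RPUSD4, TYMS and C29H11orf24 (r 0.999 each), CNN1 like RHOC, STRA6 and GJA1 (0.9996 to 0.9998), MYLK like NUTF2, DDRGK1 and YWHAH (0.9996 each), and THY1 like CKB, GADD45G and ELF4 (0.998 each). VIM, which lacks the gap, reached only 0.764 (ADAT2), 0.763 (PLAGL1) and 0.753 (ISG15). After each cell type's mean was subtracted, CNN1 ran close to SLC27A1 (0.987) and CHAF1A (0.983), and ACTA2 ran closest to GSS (0.947), PGS1 (0.914) and IGF1R (0.910). THY1 then ran closest to EXTL1 (0.919), TRIM28 (0.910) and PLXNA3 (0.909), MYLK to SLC7A1 (0.886), MSRA (0.844) and MRPL35 (0.819), and VIM to GADD45A (0.809), FGD5 (0.742) and HSP90B1 (0.742). The CNN1 values in granulocytes with PBS were at background, so its r after subtraction rests partly on a step not fully measured.

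In order of level, ACTA2 and MYLK were highest in BES with PBS, then BES with IFNT, then granulocytes with IFNT, then granulocytes with PBS, and CNN1 followed the same order. For ACTA2 the BES treatments did not overlap while the granulocyte treatments did. For MYLK the treatments overlapped in both cell types, and for CNN1 they overlapped in BES. THY1 was highest in granulocytes with IFNT, then granulocytes with PBS, which overlapped, then BES with PBS, then BES with IFNT. For VIM neighbouring groups overlapped under the 75th percentile scaling and the order of the cell types turned with quantile normalization, so no order is given.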

How the data were processed

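Each of 14 samples was hybridised to 1 single-colour array. The deposited scanner files hold intensity per spot from Agilent Feature Extraction 9.5, per the submitters' processing notes; the processed signal was background-subtracted and detrended, with surrogate values for spots at background, per the file headers. The deposited value table of the authors holds log2 values, which were the log2 processed signal minus 1 constant per array, with no centring.

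Processed signals were taken to log2, and each array's 75th percentile over non-control probes was subtracted. Control spots were dropped, as were spots with a non-uniformity or population outlier mark. Testing was limited to probes well above background on at least 3 BES or 4 granulocyte arrays. IFNT was compared with PBS in a separate fit per cell type with limma 3.58.1 in R 4.3.3 (two-sided, Benjamini-Hochberg over all probes tested, threshold 0.05). Differences between cell types and between responses came from 1 fit over 14 arrays. Genes had their brightest probe; 7078 of 15208 probes had a RefSeq symbol, 960 of them through a description. On simulated data the fits recovered 94% of changes of 1 (log2) and 68% of changes of 0.5 in granulocytes (10379 probes), and 94% and 71% in BES (11309 probes). There were 12 false calls in granulocytes and 9 in BES. The simulation held 100 changes of each size per cell type, with independent normal noise. In the measured granulocyte data 44.6% of probes passed, so these rates need not hold there. The number of arrays limits the precision.

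The members, lists, tests and alternatives were chosen with earlier results of these data known. All 5 genes are named, whatever their tests gave, with up to 3 genes of smallest unadjusted p per list and cell type, members of small counts (named after their values were seen), and for each member the 3 genes most like it on either measure; some genes that this rule names are not reported here. Alternatives were quantile normalization, median scaling, normexp correction (offset 50), no filter on dim probes, marked spots kept, the value table, an intensity trend and robust prior, a replicate block, array row, all 14 arrays in 1 fit and each sample left out. For samples with the same replicate number, r of their deviations was −0.01 to 0.06 in BES and −0.12 to 0.20 in granulocytes. For different numbers it was −0.12 to 0.09 and −0.43 to 0.32. The numbers were not taken as pairs, though so few samples cannot exclude pairing.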

Additional observations from a re-analysis of the deposited data

Results flagged for a closer look

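The IFNT response differed between granulocytes and BES for CNN1 (fitted 1.65 ± 0.20, granulocytes minus BES, log2) and THY1 (0.47 ± 0.10), by the test of the difference itself. That test was passed by 26.5% of 12046 probes. The CNN1 value rests on granulocyte PBS samples at background. With these at their bound the difference was at least 0.93 (1.91-fold) on the processed signal, against a fitted 0.60 with normexp correction. CNN1 was higher with IFNT in 4 of 4 granulocyte samples than in every PBS sample, and its BES groups overlapped. In granulocytes, 43.6% of all probes did not overlap between the treatments. THY1 was lower with IFNT in 3 of 3 BES samples than in every PBS sample, and its granulocyte groups overlapped. In BES, 33.5% of all probes did not overlap, and the THY1 call held in only 6 of 16 alternatives.

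MYLK in granulocytes with PBS had 1 sample far from the rest of its group, PBS sample 1 at −0.92, with the other 3 between −0.70 and −0.66. Without it, the MYLK change in granulocytes was −0.03. Over 10 groups of 4 samples examined for such a sample, chance marks about 1 in 20 groups.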

How the results depend on the processing

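In granulocytes the call of CNN1 and the lack of one for ACTA2, MYLK, VIM and THY1 held in all 17 alternatives. For CNN1 this adds no support, since its PBS samples were at background in each. The value table must repeat the reported calls, since it differs from the processed signal by 1 constant per array. In BES the number of the 5 genes called was 1 (THY1). It was 0 with quantile normalization, without the filter on dim probes, with the replicate block and when array row entered the fit, and 2 with an intensity trend and robust prior (ACTA2 and THY1); leaving out single samples gave 0 to 1. Probes called in BES, 414 by the reported setting, were 189 without the filter, 1011 with the trend and robust prior, 149 with array row, and 183 to 534 without single samples. For the difference between the responses, 4 of the 5 genes passed with quantile normalization, against 2.

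The replicate block took adjusted p for THY1 in BES to 0.095 and for the ACTA2 difference between the responses to 0.0346; it changed no other call among the 5 genes. Whether these numbers pair the samples is not known.

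Signs changed for VIM and MYLK in values near 0. VIM in granulocytes was −0.0328 with quantile normalization, −0.0029 with median scaling and −0.0041 to 0.0390 without single samples (lowest without IFNT sample 1), and MYLK in granulocytes was −0.0316 to 0.0569 without single samples (lowest without PBS sample 1). VIM in granulocytes minus BES was −0.86 (PBS) and −1.06 (IFNT) with quantile normalization, −0.0138 and −0.13 with median scaling, −0.0192 (IFNT) with normexp correction and −0.0074 to 0.0673 (IFNT) without single samples (lowest without BES IFNT sample 1). For granulocytes minus BES with PBS the median over all probes was 0.03, and −0.23 with quantile normalization, −0.12 with median scaling and 0.50 with normexp correction. The causes were not tested. Averaging the probes of a gene was not run, since each gene had 1 probe, and array row could not be fitted in granulocytes. Signal over background limits CNN1 in granulocytes with PBS, where only a bound on the processed signal is given.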

Other observations

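Among 12 tested regulators of contractile and mesenchymal genes, 6 were higher and 2 lower in granulocytes than in BES with PBS, and 3 more were at background in granulocytes with PBS. Over all named genes, 92.7% passed this comparison. Of the 2 lower, TEAD1 was above background on 1 of 4 granulocyte PBS arrays, and SMAD3 differed by only −0.15 ± 0.06. SNAI2 and TWIST1, transcription factors of mesenchymal cells, were above background on 3 of 3 BES arrays in each treatment and on no granulocyte array. ZEB1, another such factor on the list, went the other way. It was higher in granulocytes with PBS (2.70 ± 0.23, limma, adjusted p 1.3e-07) and above background on 4 of 4 granulocyte arrays in each treatment.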
